A study of Rattus norvegicus with 6 samples.

Results

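Serpins and other protease inhibitors were followed in lung tissue of rats of a Tmprss2 knockout (KO) line and of wild-type (WT) rats. The genes were chosen by name: every row of the count table whose symbol starts with Serpin, apart from the complement regulator Serping1, plus A2m, Cd109, Cpamd8, Slpi, Cst3, Cst6, Cst7, Csta, Cstb, Wfdc1 and Wfdc2. These names matched 52 of the 40995 genes, 41 serpins and 11 others. The 28 genes with at least 10 counts in 2 or more libraries are described as the expressed inhibitors, and 24 fell short of that minimum. The 3 KO rats came from a line named crTMPRSS2, made by CRISPR/Cas9 editing of Tmprss2, and were set against 3 WT rats. All were on a Sprague-Dawley background and received no treatment, and their poly-A RNA was sequenced in 1 batch. The sources used here do not give sex, age or the number of founder animals behind the line. The comparison asks how the lung at baseline differs between the genotypes.

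Serpins are single-use inhibitors. A protease cuts the exposed reactive centre loop of the serpin, which snaps into the body of the inhibitor and drags the trapped enzyme with it. A few serpins have lost this activity and act as chaperones or signalling proteins. Alpha-macroglobulins instead cage a protease after it cuts a bait region, cystatins plug the active site of cysteine cathepsins, and whey acidic protein (WFDC) inhibitors such as Slpi block serine proteases of neutrophils. In the lung, the balance between neutrophil elastase and its inhibitors is the best known case, since inherited lack of SERPINA1 in humans leads to emphysema.

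Total counts were 29933359 to 30514778 in the KO libraries and 33033732 to 36895162 in the WT libraries. Levels within a gene are given as CPM, counts scaled to a common library size with edgeR's TMM factors. On a principal component analysis of log2 CPM, WT replicate 1 lay far from the rest along an axis with 59.8% of the variance. The summed CPM of 20 squamous epithelium markers was 17.7 to 27.8 in KO, 3651 in WT replicate 1 and 23.3 to 26.8 in WT replicates 2 and 3. The summed CPM of 13 striated muscle markers was 113 to 226 in KO, 11060 in WT replicate 1 and 112 to 147 in WT replicates 2 and 3. Tests were therefore run with all 6 libraries and without WT replicate 1, and no inhibitor or related gene named below passed edgeR's test with all 6. The tissue label fits the alveolar type 2 markers, of which 8 of 8 were detected. They summed to 17830 to 19590 CPM in KO, 34640 CPM in WT replicate 1 and 21160 to 22490 CPM in WT replicates 2 and 3. Tmprss2 mRNA stood at 46.1, 56.4 and 47.0 CPM in KO replicates 1 to 3, against 50.5, 62.0 and 65.7 CPM in WT, and did not pass the test in either fit (edgeR adjusted p 0.508 with 6 libraries and 0.0589 without WT replicate 1). An edited gene can still be transcribed, so this level does not check the genotype labels.

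The collagen chaperone Serpinh1, the surface protein Cd109, the secreted WFDC protein Wfdc1 and neuroserpin, Serpini1, were lower in KO lungs, and none of the expressed inhibitors was called higher. With all 6 libraries, 0 of the 28 genes passed edgeR's quasi-likelihood test at an adjusted p under 0.05, where 0.0542% of all 18464 tested genes passed, 0.0379% lower and 0.0162% higher in KO. An unadjusted p under 0.05 was found for 12 of the 28, against 11.3% of all tested genes, and DESeq2 called 3 (Cd109, Serpinh1 and Wfdc1), against 2.73% of the genes to which it gave an adjusted p. Without WT replicate 1, 4 of the 28 passed, which is 14.3%, against 3.99% of 18994 tested genes. All 4 were lower in KO, a direction in which 2.34% of the tested genes passed, while 0 of the 28 were called higher, against 1.65%. An unadjusted p under 0.05 was found there for 10 of the 28, against 17.8% of all tested genes. Only 2 WT libraries stand behind that fit. In bulk tissue, fewer cells of a type and less RNA per cell cannot be told apart.

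Over all 28 genes, the called ones included, negative differences were the more frequent. The log2 fold change of KO over WT was below 0 for 20 of 28 genes with all 6 libraries, against 50.3% of all tested genes, and for 19 of 28 without WT replicate 1, against 49.3%. Of the 24 genes not called without WT replicate 1, 15 lay within 0.3 of 0 on the log2 scale. Over all 28, the median log2 fold change was -0.29 and -0.20 in the 2 fits, where the medians over all tested genes were -0.0029 and 0.0036. In 11 of the 28, every KO library lay below every WT library, against 11.4% of all tested genes, and these 11 included the 4 genes above. Without WT replicate 1 the same count was 11, against 17.5%. The reverse held for 1 gene, Serpinb6b, against 11.4% of all tested genes, and without WT replicate 1 for 2, Serpinb6b and Serpinb7, against 17.1%. Serpinb6b and Serpinb7 were named after their values were seen. All 28 reached 10 counts in at least 2 KO libraries and in both WT replicates 2 and 3, so none entered through a single group.

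**Figure D1:**
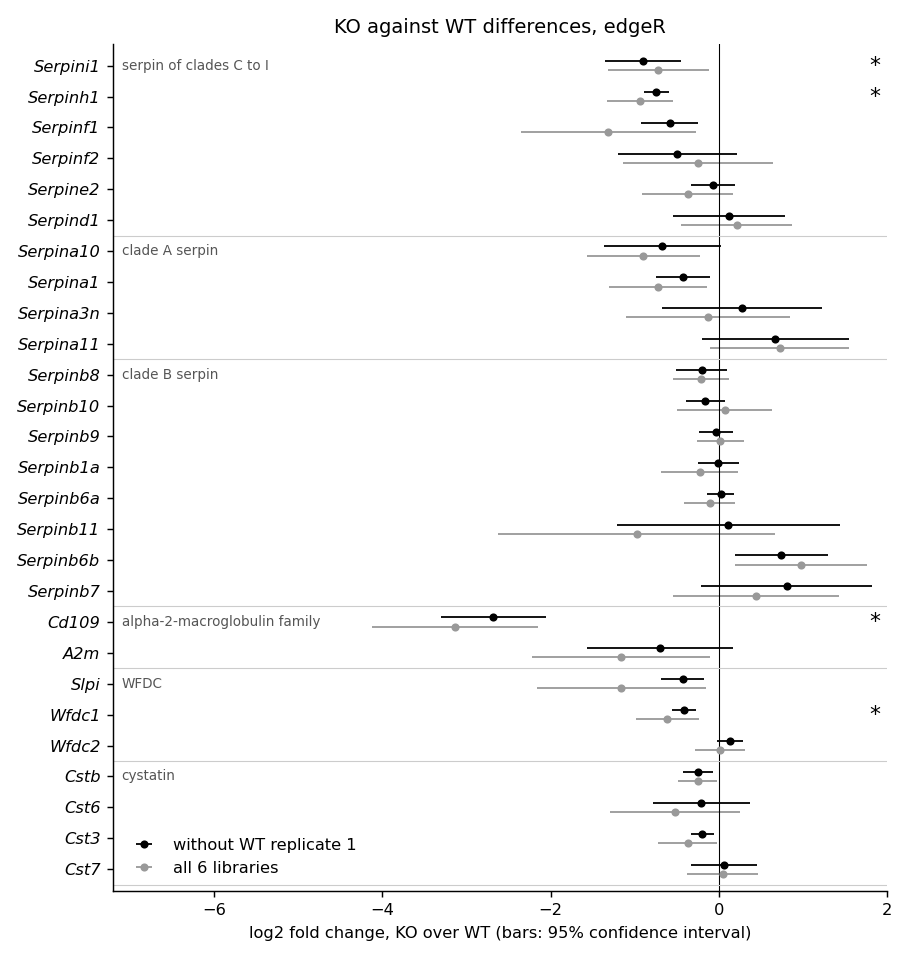
Log2 fold change of KO over WT for the expressed inhibitors reported by name, by family, with 95% confidence intervals; black points leave out WT replicate 1, grey points use all 6 libraries, and asterisks mark an edgeR adjusted p under 0.05 without WT replicate 1. The 4 marked genes, Serpini1, Serpinh1, Cd109 and Wfdc1, lie left of 0 in both fits, and Cd109 lies farthest at -2.68 without WT replicate 1.

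Serpinh1 encodes HSP47, a serpin without inhibitory activity that stays in the endoplasmic reticulum and holds procollagen chains in their triple helix. It was the expressed inhibitor with the smallest p without WT replicate 1. Serpinh1 (chromosome 1, 153643500 to 153650853 of mRatBN7.2, minus strand) had 425, 434 and 491 CPM in KO replicates 1 to 3, against 1080, 754 and 751 CPM in WT replicates 1 to 3. The groups did not overlap, and the highest KO library lay well under the lowest WT library. Without WT replicate 1 the KO over WT log2 fold change came to -0.74 (SE 0.07; 95% confidence interval from -0.89 to -0.60; edgeR adjusted p 0.00043), and with all 6 libraries to -0.94 (SE 0.17, edgeR adjusted p 0.151). The KO mean was 449.5 CPM, 1.68-fold below the mean of WT replicates 2 and 3 (753 CPM).

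Serpinh1 was called in every fit without WT replicate 1 that left out 1 more library. Some markers of the cells that make collagen were lower as well. The summed CPM of 9 fibroblast markers, all detected, was 4391 to 4665 in KO, 9890 in WT replicate 1 and 5720 to 6507 in WT replicates 2 and 3. Their median log2 fold change without WT replicate 1 was -0.30. Pi16, also on that list, overlapped between the groups and did not pass (-0.14, edgeR adjusted p 0.682, in that fit). With all 6 libraries, 0 of the 9 passed. Without WT replicate 1, 4 of the 9 passed as lower in KO, against 2.34% of all tested genes. Among them Col1a1, named after its values were seen, a chain of type I collagen and so a client of HSP47, had 887, 856 and 980 CPM in KO, against 2515, 1370 and 1199 CPM in WT. Without WT replicate 1 this gave -0.50 on the log2 scale (SE 0.07, edgeR adjusted p 0.00593), and with all 6 libraries -0.90 (SE 0.27, edgeR adjusted p 0.311). The part of fibroblast content in the Serpinh1 difference was not tested.

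The promoters of Serpinh1 and Serpini1 are shown because they are the called genes with an entry in the RefSeq promoter table (build GRCr8), which runs from 250 bases before to 50 bases after the annotated start. Capitals mark matches to a searched motif on either strand. The Serpinh1 window (chr1:163062927-163063226, minus strand) belongs to a gene known to be induced by heat shock. It holds 1 heat shock element (GAANNTTC) whose first base lies at -30 from the start, and 1 GC box (GGGCGG) at -129. The Serpini1 window (chr2:162645112-162645411, plus strand) holds 1 CCAAT box (CCAAT) at -74.
Serpinh1: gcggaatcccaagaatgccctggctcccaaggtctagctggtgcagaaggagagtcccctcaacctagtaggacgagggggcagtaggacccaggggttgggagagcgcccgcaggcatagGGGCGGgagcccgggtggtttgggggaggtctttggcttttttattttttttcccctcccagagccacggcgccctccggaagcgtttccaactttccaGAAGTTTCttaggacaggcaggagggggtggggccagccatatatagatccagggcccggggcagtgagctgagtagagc
Serpini1: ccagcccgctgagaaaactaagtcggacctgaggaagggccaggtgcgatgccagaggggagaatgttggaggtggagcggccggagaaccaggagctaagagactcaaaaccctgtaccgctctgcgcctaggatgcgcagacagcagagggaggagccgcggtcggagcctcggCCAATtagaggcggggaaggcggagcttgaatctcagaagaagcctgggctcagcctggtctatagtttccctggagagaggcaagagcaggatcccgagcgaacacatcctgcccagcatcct
Among all 33469 promoters of the table, 8.59% hold the heat shock element, 33.1% the GC box and 37.5% the CCAAT box. TATAAA and the AP-1 site TGANTCA were also searched, are held by 14.2% and 7.33% of all promoters, and had no match in these windows. The motifs shown did not overlap each other, and a match describes letters alone. Of the 28 expressed inhibitors, 19 have an entry, and 3 of these hold the heat shock element.

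Serpini1, neuroserpin, is an inhibitor of tissue plasminogen activator that is best known from neurons. Serpini1 (chromosome 2, 160346403 to 160433135, plus strand) had 3.43, 2.81 and 3.86 CPM in KO replicates 1 to 3, against 4.03, 6.09 and 6.52 CPM in WT replicates 1 to 3. All KO libraries were lower, but WT replicate 1 lay close to the highest of them. Its log2 fold change was -0.90 (SE 0.20, edgeR adjusted p 0.0371) without WT replicate 1 and -0.72 (SE 0.26, edgeR adjusted p 0.383) with all 6. Within the fit without WT replicate 1, the call was lost when KO replicate 1 or 2 or WT replicate 2 or 3 was also left out (edgeR adjusted p 0.0919, 0.128, 0.123 and 0.148). It was lost too with the replicate number as a block (edgeR adjusted p 0.0739) and in limma on log2(FPKM + 0.1) and log2(FPKM + 1) (limma adjusted p 0.104 and 0.0834).

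The protease that neuroserpin inhibits was lower as well without WT replicate 1. Plat, tissue plasminogen activator, had 159, 141 and 142 CPM in KO, against 207, 203 and 214 CPM in WT. Its fold change on the log2 scale was -0.49 (SE 0.07, edgeR adjusted p 0.00406) without WT replicate 1. With all 6 it was -0.49 (SE 0.09, edgeR adjusted p 0.180), where the edgeR call was lost, while DESeq2 called Plat with all 6. Other secreted inhibitors of the fibrinolytic and clotting enzymes, described here, did not pass in either fit. Serpine2, a thrombin inhibitor, stood at 14.5 to 17.3 CPM in KO and 15.8 to 28.4 CPM in WT. Serpinf2, the plasmin inhibitor, and Serpind1, heparin cofactor II, stood between 1.28 and 2.92 CPM in every library, with log2 fold changes of -0.49 (95% confidence interval -1.21 to 0.22) and 0.12 (-0.55 to 0.78) without WT replicate 1, and of -0.25 and 0.21 with all 6 libraries. Serpind1 lies within the span of Pi4ka on the opposite strand, and as the sources do not say how strand was handled, its reads cannot be told apart from those of Pi4ka. Antithrombin, Serpinc1, had at most 6 counts in any library and was not tested.

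Serpinf1 encodes PEDF, a non-inhibitory serpin that restrains blood vessel growth. Serpinf1 (chromosome 10, 60250198 to 60262593, minus strand) had 15.5, 12.5 and 16.5 CPM in KO replicates 1 to 3, against 66.4, 25.3 and 19.3 CPM in WT replicates 1 to 3. Every KO library lay below every WT library, and WT replicate 1 was 2.62 times the next highest library. This gave a KO over WT difference on the log2 scale of -1.32 (SE 0.44, edgeR adjusted p 0.364) with all 6 libraries and -0.59 (SE 0.15, edgeR adjusted p 0.0641) without WT replicate 1. The authors' deposited table, which lists 192 genes, holds 2 of the expressed inhibitors. It gives Serpinf1 a log2 fold change of -1.33 with an adjusted p of 0.0335. DESeq2 as run here on all 6 libraries also gave Serpinf1 -1.33, with a DESeq2 adjusted p of 0.0510, which did not pass. The reason for that difference in adjusted p was not tested. DESeq2 was run here on the genes past edgeR's low-count filter, without DESeq2's own filtering step before adjustment. The same deposited table of the authors gives Cd109 a log2 fold change of -3.15 with an adjusted p of 3.16e-12. Serpinh1 and Wfdc1 are not listed there. DESeq2 as run here on all 6 libraries gave them -0.945 and -0.62 (DESeq2 adjusted p 7.93e-05 and 0.0336). How the authors chose the listed genes was not examined, so absence from their table is not read as a failed test.

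Cd109 showed the largest difference among the expressed inhibitors. It belongs to the alpha-macroglobulin family, is anchored to the cell surface by a lipid, and binds TGF-beta and restrains its signalling. Cd109 (chromosome 8, 79454480 to 79569195, plus strand) had 1.68, 0.946 and 1.24 CPM in KO replicates 1 to 3, against 17.5, 10.04 and 6.60 CPM in WT replicates 1 to 3. The highest KO library was far below the lowest WT library. On the log2 scale the difference was -2.68 (SE 0.28; 95% confidence interval from -3.31 to -2.06; edgeR adjusted p 0.00101) without WT replicate 1 and -3.14 (SE 0.42, edgeR adjusted p 0.0919) with all 6. The KO mean was 6.44-fold below the mean of WT replicates 2 and 3. The call held when any 1 more library was left out of the fit without WT replicate 1.

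Per length, as deposited FPKM, Cd109 averaged 0.216 ± 0.0625 in KO and 1.92 ± 0.953 in WT (SD, n = 3 each). Mesothelium markers moved in the same direction. The summed CPM of 11 such markers, all detected, was 320 to 374 in KO and 501 to 525 in WT. Without WT replicate 1, 9 of 10 tested ones passed as lower in KO, against 2.34% of all tested genes. With all 6 libraries, 0 passed. The 8 platelet and megakaryocyte markers, 7 of them detected, summed to 12.3 to 15.9 CPM in KO. In WT they summed to 33.5 CPM in replicate 1 and 20.8 to 30.2 CPM in replicates 2 and 3. Of the 6 tested ones, 2 passed as lower in KO without WT replicate 1 and 0 with all 6 libraries. The part of mesothelium, fibroblast or platelet content in the Cd109 difference was not tested. The family's broad-spectrum circulating inhibitor, A2m, had 0.809, 1.51 and 1.28 CPM in KO and 4.198, 2.47 and 1.45 CPM in WT. These groups overlapped, and A2m did not pass (log2 fold change -0.70, 95% confidence interval -1.57 to 0.16, without WT replicate 1). A2m stood at -1.17 on the log2 scale (SE 0.45, edgeR adjusted p 0.409) with all 6 libraries. The third name of this family, Cpamd8, had 0 counts in all 6 libraries.

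**Figure D2:**
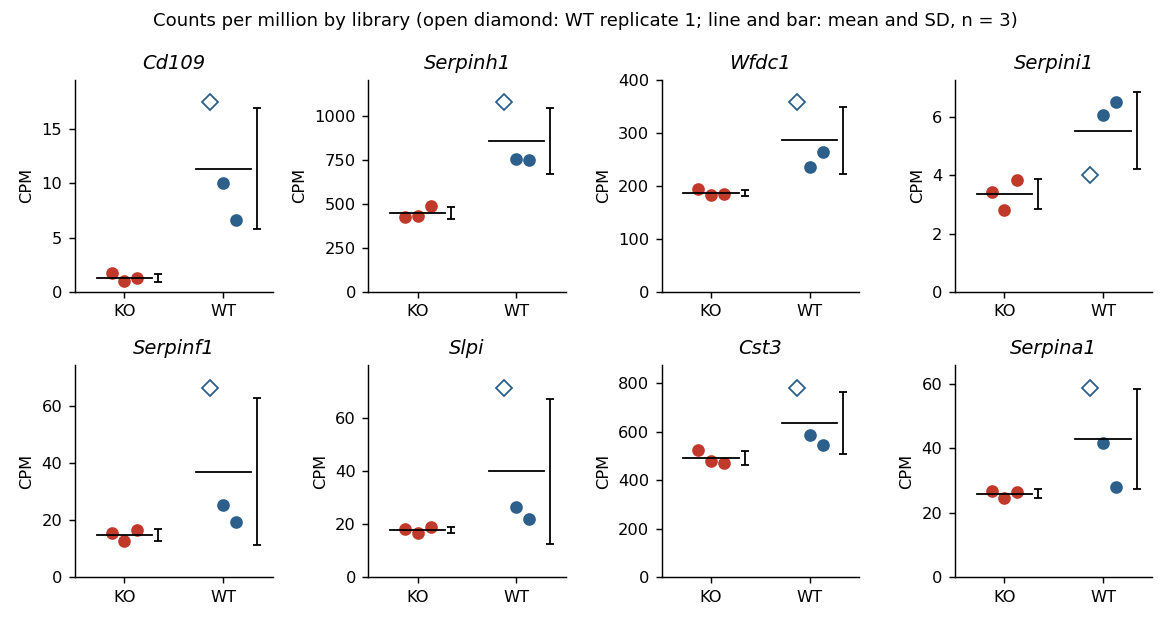
CPM of 8 inhibitor genes in each library, KO in red and WT in blue, with the open diamond for WT replicate 1 and the mean and SD of 3 libraries beside the points. KO libraries lie below every WT library in all 8 panels, and WT replicate 1 is the highest library in 7 of them, the exception being Serpini1. The 8 genes are a selection from those named by rule and do not stand for all 28. KO lay below WT in this way for 11 of the 28 and for 11.4% of all tested genes.

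Wfdc1, also known as ps20, is a secreted protein with a whey acidic protein domain, made by stromal cells. Wfdc1 (chromosome 19, 47720191 to 47739121, plus strand) had 194, 183 and 184 CPM in KO replicates 1 to 3, against 358, 236 and 264 CPM in WT replicates 1 to 3. KO lay wholly below WT, and the KO libraries lay close together. Its fold change on the log2 scale was -0.42 (SE 0.06, edgeR adjusted p 0.00678) without WT replicate 1 and -0.61 (SE 0.16, edgeR adjusted p 0.262) with all 6. Within the fit without WT replicate 1 the call was lost when KO replicate 2 was also left out (edgeR adjusted p 0.0525), and in limma on log2(FPKM + 1) (limma adjusted p 0.0517).

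The other WFDC genes did not pass. Slpi, which guards airway surfaces against neutrophil elastase, had 18.1, 16.5 and 18.7 CPM in KO replicates 1 to 3, against 71.4, 26.3 and 21.7 CPM in WT replicates 1 to 3. KO lay below WT throughout, and WT replicate 1 was 2.71 times the next highest library. Its log2 fold change was -0.43 (SE 0.11, edgeR adjusted p 0.0681) without WT replicate 1 and -1.16 (SE 0.43, edgeR adjusted p 0.392) with all 6. Wfdc2, known as HE4 and made by airway secretory cells, had 282, 274 and 247 CPM in KO and 308, 235 and 254 CPM in WT. Wfdc2 overlaps Wfdc6a, Spint3 and Eppin on the opposite strand. Its groups overlapped, and its log2 fold change without WT replicate 1 was 0.13 (95% confidence interval -0.02 to 0.29), against 0.01 with all 6 libraries. The 10 airway secretory markers summed to 6397 to 7082 CPM in KO. In WT they summed to 4292 CPM in replicate 1 and 5195 to 5481 CPM in replicates 2 and 3. Of the 8 tested ones, 2 passed as higher in KO without WT replicate 1, against 1.65% of all tested genes, and 0 with all 6 libraries. The part of airway cell content in the Slpi and Wfdc2 levels was not tested.

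Cystatins spanned a wide range of levels per length. Cst3, cystatin C, which blocks secreted and lysosomal cysteine cathepsins, averaged 668 ± 37.9 FPKM in KO and 871 ± 181 FPKM in WT (SD, n = 3 each), the highest level of the 28 genes. In CPM it stood at 522, 480 and 472 in KO replicates 1 to 3, against 781, 585 and 543 in WT replicates 1 to 3. The KO libraries were again the lower ones, and the gap between the highest KO and the lowest WT library was small. For Cst3 the log2 fold change came to -0.20 (SE 0.06, edgeR adjusted p 0.118) without WT replicate 1 and -0.37 (SE 0.15, edgeR adjusted p 0.422) with all 6.

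Cstb, the cytosolic cystatin B, had 49.8, 45.5 and 51.2 CPM in KO, against 59.0, 61.3 and 54.5 CPM in WT. It did not overlap either, with a log2 fold change of -0.24 (95% confidence interval -0.42 to -0.07, edgeR adjusted p 0.139) without WT replicate 1 and -0.25 (edgeR adjusted p 0.407) with all 6. Cst7, cystatin F of cytotoxic and myeloid cells, stood at 6.05 to 7.08 CPM in KO and 5.55 to 7.02 CPM in WT, and Cst6, cystatin E/M, at 3.09 to 5.67 CPM in KO and 4.49 to 8.43 CPM in WT. Both overlapped between the groups.

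**Figure D3:**
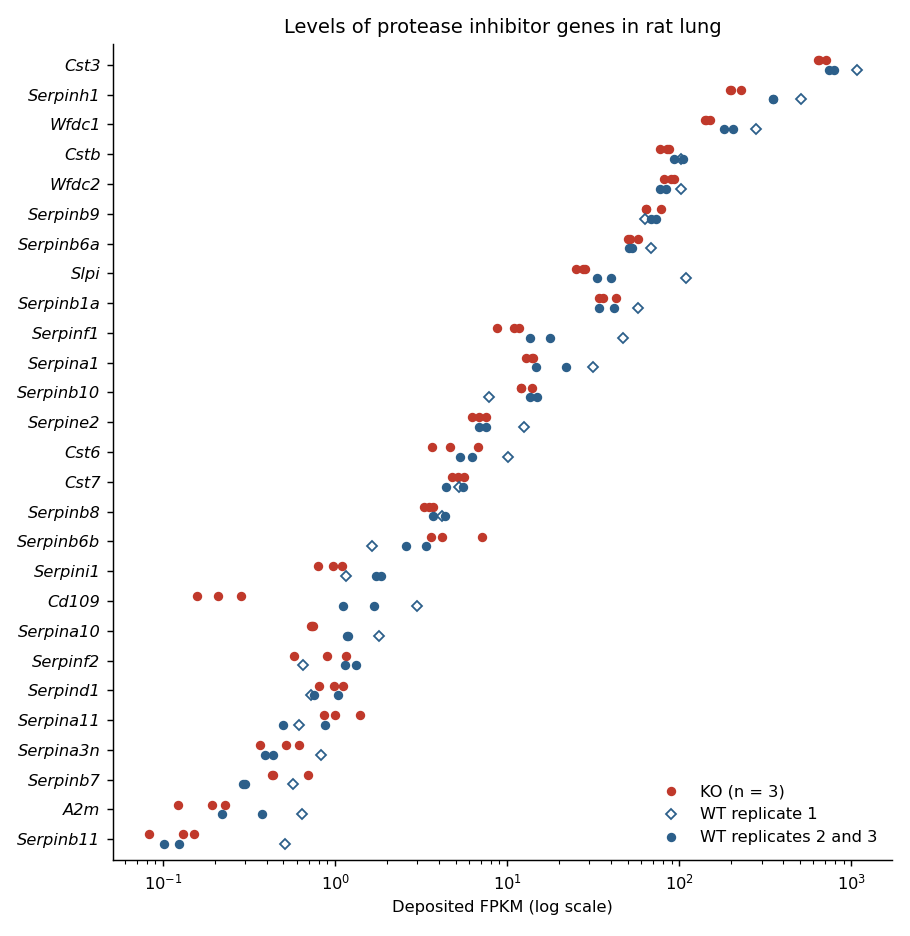
Deposited FPKM of the expressed inhibitors reported by name, on a log scale, with KO libraries in red, WT replicates 2 and 3 in filled blue and WT replicate 1 as open diamonds. Levels per length run over more than 3 powers of 10, from Serpinb11 at a mean of 0.183 FPKM to Cst3 at 770 FPKM, with Serpinh1 (305 FPKM) and Wfdc1 (183 FPKM) next to the top.

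Clade A holds the secreted serpins that the liver makes for plasma. Of its 14 names, 4 were expressed in lung tissue and 8 had 0 counts in all 6 libraries. Serpina1, alpha-1-antitrypsin, the main plasma inhibitor of neutrophil elastase (chromosome 6, 122866314 to 122888339, minus strand), had 26.8, 24.4 and 26.5 CPM in KO replicates 1 to 3, against 58.9, 41.7 and 27.9 CPM in WT replicates 1 to 3. The groups did not overlap, but WT replicate 3 lay just above the KO libraries. Its log2 fold change was -0.42 (SE 0.14, edgeR adjusted p 0.153) without WT replicate 1 and -0.72 (SE 0.25, edgeR adjusted p 0.374) with all 6. The 5 liver markers summed to 65.5 to 93.3 CPM in KO and 74.4 to 92.1 CPM in WT. Of these, 4 were detected and only 1 had enough counts to be tested, so the sum is a weak measure of liver RNA.

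Serpina10, which inhibits clotting factor Xa together with protein Z (chromosome 6, 122756106 to 122764544, minus strand), had 1.17, 1.198 and 1.18 CPM in KO and 2.84, 1.90 and 1.88 CPM in WT. It did not overlap between the groups, and its log2 fold change was -0.90 (SE 0.29, edgeR adjusted p 0.347) with all 6 libraries and -0.67 (SE 0.31, edgeR adjusted p 0.299) without WT replicate 1. Serpina3n and Serpina11 stood between 0.757 and 2.27 CPM in every library and overlapped between the groups. Serpina1 and Serpina3n have close copies (Serpina1f; Serpina3m and Serpina3c) with at most 2 counts in any library.

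Clade B serpins lack a classical signal peptide and mostly act inside cells. Serpinb9, the inhibitor of granzyme B that protects cytotoxic cells from their own granules (chromosome 17, 31420118 to 31443237, minus strand), was the clade's most abundant member per length. It had 192, 157 and 157 CPM in KO replicates 1 to 3, against 153, 180 and 167 CPM in WT replicates 1 to 3. The groups overlapped, and the log2 fold change was -0.04 (95% confidence interval -0.24 to 0.16) without WT replicate 1 and 0.02 with all 6. The summed CPM of 10 natural killer and cytotoxic markers, which include Gzmb and Gzmk, was 228 to 232 in KO, 22.7 in WT replicate 1 and 122 to 124 in WT replicates 2 and 3. Gzmb, the target of Serpinb9, named here after its values were seen, had 15.7, 18.9 and 18.8 CPM in KO and 2.00, 11.8 and 14.3 CPM in WT, and did not pass (edgeR adjusted p 0.102 without WT replicate 1 and 0.556 with all 6 libraries).

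The other expressed clade B members of chromosome 17 did not pass either. Serpinb6a, an inhibitor of cathepsin G, stood at 113 to 129 CPM in KO and 114 to 151 CPM in WT, and Serpinb1a, an inhibitor of neutrophil elastase, at 43.5 to 54.5 CPM in KO and 43.4 to 72.3 CPM in WT. Serpinb6b had 39.4, 23.4 and 20.2 CPM in KO, against 9.01, 18.9 and 14.3 CPM in WT, which made it the inhibitor with every KO library above every WT library. It did not pass, with a log2 fold change of 0.74 (95% confidence interval 0.19 to 1.29, edgeR adjusted p 0.146) without WT replicate 1 and 0.97 (edgeR adjusted p 0.374) with all 6. Serpinb6a overlaps Ripk1 and Nqo2 on the opposite strand. Reads may also have been divided among the related genes Serpinb6a, Serpinb6b and Serpinb6e, so these values are uncertain. The same holds for Serpinb9 with Serpinb9d and for Serpinb1a with Serpinb1b. Serpinb6e had 0 counts in every library, Serpinb9d at most 2 and Serpinb1b at most 6. How alike these sequences are was not measured.

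On chromosome 13 the clade split in another way, by library. Of the 10 clade B genes there, 4 were expressed, namely Serpinb7, Serpinb8, Serpinb10 and Serpinb11. Serpinb8, an inhibitor of furin, stood at 9.87 to 11.2 CPM in KO and 11.2 to 13.1 CPM in WT, and Serpinb10, a serpin of blood cell precursors, at 19.0 to 22 CPM in KO and 12.2 to 23.4 CPM in WT. Neither passed in either fit, although every KO library of Serpinb8 lay just below every WT library. Serpinb11 lay closest to the count minimum, with 9 to 16 counts in KO and 13 to 51 in WT, and Serpinb7 had 28 to 44 counts in KO and 20 to 34 in WT. Just outside it, Serpinb3 had 4 to 6 counts in KO and 0 to 13 in WT.

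Another 5 genes of the same chromosome 13 stretch were found almost only in WT replicate 1. Serpinb12 had 0 counts in every KO library and in WT replicates 2 and 3, and 1404 counts (47.5 CPM) in WT replicate 1. Against a floor of 3 counts per library, at most 0.0971 CPM, that is at least 489.5-fold higher in WT replicate 1. Serpinb3a, of the squamous cell carcinoma antigen group, had 0 counts in the same 5 libraries and 431 counts in WT replicate 1, at least 150.2-fold higher there. Serpinb13, a serpin of skin keratinocytes, had 0 and 22 counts in the same way.

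Maspin, Serpinb5, had 2, 6 and 6 counts in KO and 444, 0 and 6 counts in WT replicates 1 to 3. Serpinb2, the plasminogen activator inhibitor PAI-2, had 0, 6 and 2 counts in KO and 99, 0 and 0 counts in WT. The 5 genes summed to 0.0648 to 0.378 CPM in KO, 81.3 CPM in WT replicate 1 and at most 0.161 CPM in WT replicates 2 and 3. Csta, cystatin A of the squamous cell envelope, and Serpina9 each had 52 counts in WT replicate 1 and 0 elsewhere. These 7 genes had 10 or more counts in WT replicate 1 alone, so the minimum for expressed inhibitors left them out and they were not tested. Squamous markers stood in the same library, Krt13 at 1339 CPM and Krt4 at 1579 CPM, and Sprr1a, Sprr3 and Cnfn had 892, 2317 and 836 counts there and 0 in all other libraries. Of the 20 markers, Sprr2d, Crnn and Rhcg had 0 counts in all 6 libraries. Whether these inhibitors came from squamous tissue was not tested. Of the remaining 17 names outside the minimum, 10 had 0 counts throughout, 6 had at most 9 counts in any library, and Serpinb3 is described above.

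**Figure D4:**
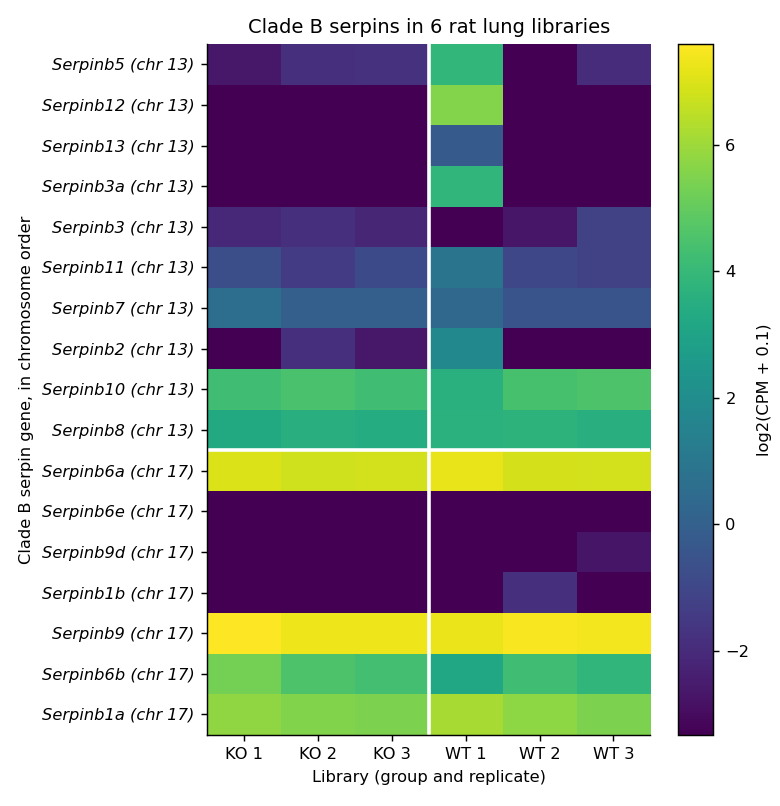
Heat map of log2(CPM + 0.1) for the 17 clade B serpin genes, in order along chromosomes 13 and 17, in KO libraries and then WT libraries. Serpinb5, Serpinb12, Serpinb13, Serpinb3a and Serpinb2 are bright in the WT 1 column and dark elsewhere, whereas Serpinb9 and Serpinb6a are bright in all 6 columns.

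A list of proteases, made of targets of these inhibitors and related enzymes, held called genes in both directions without WT replicate 1. Of its 37 tested genes, 0 passed in edgeR with all 6 libraries, where 17 had an unadjusted p under 0.05, against 11.3% of all tested genes. DESeq2 called 4 there (Ctsd, Ctsz, Gzmm and Plat), against 2.73%. Without WT replicate 1, 6 fell and 3 rose in edgeR, against 2.34% lower and 1.65% higher over all tested genes. The 6 that fell were Plat, the serine protease Htra1 and the lysosomal cathepsins Ctsd, Ctsh, Ctsl and Ctsz. Ctsd, an aspartic protease outside the reach of cystatins, had 461, 517 and 468 CPM in KO, against 930, 781 and 729 CPM in WT; its difference was -0.65 on the log2 scale (SE 0.06, edgeR adjusted p 0.00066) without WT replicate 1 and -0.76 (edgeR adjusted p 0.127) with all 6. Ctsh, Ctsl and Ctsz, cysteine cathepsins, had log2 fold changes of -0.30, -0.31 and -0.38 in the same fit (edgeR adjusted p 0.0280, 0.0489 and 0.0168), and Htra1 one of -0.29 (edgeR adjusted p 0.0303). With all 6 libraries the values of Ctsh, Ctsl, Ctsz and Htra1 were -0.41, -0.47, -0.52 and -0.51 (edgeR adjusted p from 0.259 to 0.351).

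The 3 that rose were the granzymes Gzmk and Gzmm and the inflammasome enzyme Casp1. Gzmk had 31.7, 27.4 and 26.6 CPM in KO, against 2.37, 14.7 and 14.9 CPM in WT; its difference was 0.95 on the log2 scale (SE 0.11, edgeR adjusted p 0.00152) without WT replicate 1 and 1.418 (SE 0.57, edgeR adjusted p 0.422) with all 6. Gzmm and Casp1 had log2 fold changes of 0.94 and 0.49 (edgeR adjusted p 0.0130 and 0.0194) in the first of these fits and of 1.31 and 0.68 (edgeR adjusted p 0.338 and 0.2997) in the second. WT replicate 1 was the lowest library for all 3. The part of natural killer and cytotoxic cell content, whose summed markers are given above, in these rises was not tested.

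Calls in the remaining lists were single genes, too few to describe a list, beside 2.34% of all tested genes called lower. Among 11 receptors and cofactors, 1 fell without WT replicate 1, the endocytic receptor Lrp2, at -0.34 on the log2 scale (SE 0.07, edgeR adjusted p 0.0352), with 91.0, 92.1 and 80.0 CPM in KO and 175, 108 and 114 CPM in WT. Lrp2 stood at -0.59 (edgeR adjusted p 0.351) with all 6 libraries. Plaur, the urokinase receptor, had a log2 fold change of -0.52 (SE 0.13) and did not pass (edgeR adjusted p 0.0544). Of 33 tested genes of other inhibitor families (Kunitz inhibitors, inter-alpha-trypsin inhibitor chains, TIMPs and others), 1 fell, the metalloprotease inhibitor Timp1, at -0.48 (SE 0.11, edgeR adjusted p 0.0369), with 21.9, 18.2 and 22.6 CPM in KO and 37.7, 29.5 and 28.8 CPM in WT. Timp1 stood at -0.61 (edgeR adjusted p 0.258) with all 6 libraries. Fetub, a cystatin-fold protein, had a log2 fold change of -0.33 and did not pass (edgeR adjusted p 0.0735). With all 6 libraries, edgeR called 0 in both lists, 3 receptors and cofactors and 5 other inhibitors had an unadjusted p under 0.05, against 11.3% of all tested genes, and DESeq2 called 1 in each, Plaur and Timp1, against 2.73%.

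**Figure D5:**
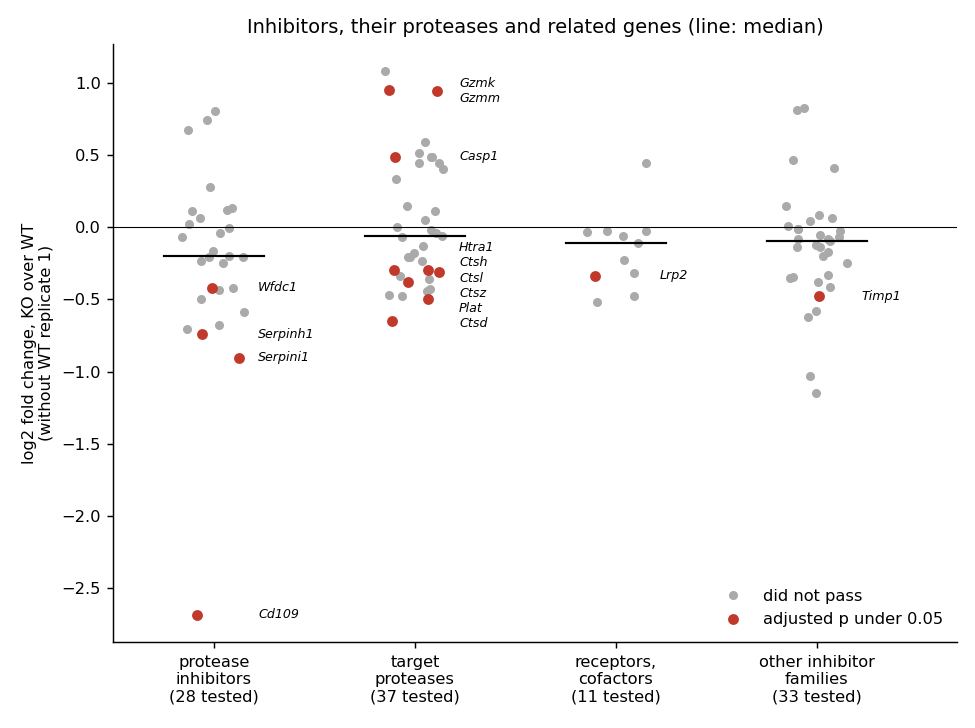
Log2 fold change of KO over WT without WT replicate 1 for the 28 expressed inhibitors, 37 target proteases, 11 receptors and cofactors and 33 genes of other inhibitor families, with red points for an edgeR adjusted p under 0.05 and a line for the median. The medians are -0.20, -0.06, -0.11 and -0.10, and Gzmk, Gzmm and Casp1 are the red points above 0.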

How the data were processed

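Whole-number read counts per gene, FPKM values, and log2 fold changes with p-values of a KO against WT comparison were deposited by the authors. The build was mRatBN7.2, per the submitters' processing notes, which also name featureCounts 2.0.6, DESeq2 1.42.0, StringTie 2.2.3, HISAT2 2.2.1 and CASAVA with no roles. Even low counts outnumbered odd ones, a pattern of counting each mate separately, so read counts exceed independent fragments. Deposited FPKM equalled the count per gene length and per a library size scaled by the authors, 0.869 to 1.05 of the total count.

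Counts were analysed in edgeR 4.0.16 (R 4.3.3) with TMM, filterByExpr defaults, glmQLFit and glmQLFTest on genotype, and Benjamini-Hochberg adjustment over all tested genes at 0.05. Each SE is the log2 fold change over the square root of F. Each library is labelled a biological replicate. The p-values set the genotype difference against the spread between these rats, which edgeR estimates with the help of all tested genes. Genes named by rule are those called in either fit, the 6 smallest p in each, the highest FPKM overall and per family, genes over 5 times apart in WT replicate 1, and, in related lists, called genes and the 2 smallest p. The other expressed inhibitors are given by level, except 1 that is counted but not reported by name here. The members, lists and the fit without WT replicate 1 were chosen with earlier results of these data known. Alternatives were RLE and upper-quartile scaling, other filters, DESeq2, limma-voom, limma 3.58.1 on log2 FPKM, robust dispersion, a replicate block, and leaving out libraries. Motifs were searched in RefSeq promoters as exact letters.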

Additional observations from a re-analysis of the deposited data

How the results depend on the processing

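With all 6 libraries, 0 expressed inhibitors passed in edgeR, beside 10 of all genes. With no low-count filter 1 (Cd109) passed, beside 13 of all genes, and with DESeq2 3 passed, beside 501. Leaving out 1 library gave 0 to 4, the 4 without WT replicate 1. Without WT replicate 1, 4 passed, beside 758 of all genes, and 9 with no low-count filter, beside 1707. DESeq2 gave 7 beside 1184, robust dispersion 6 beside 902, and limma on log2(FPKM + 1) 2 (Cd109 and Serpinh1) beside 180. Leaving out 1 more library gave 2 to 5, the 2 without KO replicate 2 and the 5 without WT replicate 3. The cause of these shifts was not tested. With no low-count filter, 1 gene (Serpinb6b) was called higher. With the replicate number as a block, 0 passed with all 6 libraries and 3 without WT replicate 1, where Serpini1 was lost. Same-numbered libraries did not deviate together (r = -0.08, 0.03 and -0.08). WT replicate 1 weighs on the deviations of all WT libraries, so these values cannot show whether the numbers pair the rats. Over all genes, 10 were called with all 6 libraries (1 to 758 over the alternatives, 501 with DESeq2) and 758 without WT replicate 1 (180 to 1707, 1184 with DESeq2). No called value of a named inhibitor changed sign under the alternatives run. A single WT library, left in some fits, is assumed to vary like the KO libraries. The 3 KO against 2 WT libraries limit what can be called.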
